A study of Sus scrofa with 6 samples.

Results

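Solute carriers and ABC transporters are the large gene families whose proteins move nutrients, ions, metabolites and drugs across the plasma membrane and the membranes of organelles. The genes described here were taken by symbol: every gene whose symbol begins with SLC and a digit, with SLCO, or with ABCA to ABCG, and whose probe set on the porcine array is paired with exactly 1 symbol. The glucose carriers SLC2A1 and SLC2A3 and the iron carriers SLC11A2 and SLC40A1 were left out by the same rule. This gave 133 of the 6765 genes that the array names, of which 120 carry SLC symbols and 13 carry ABC symbols, covered by 202 probe sets. The rule uses symbols and no measured value, but it was set with earlier results of these data known. A gene with several probe sets was read from the one that was brightest on average, and the genes were ordered by what their proteins carry.

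The study compared OBGF400, a porcine cell line of olfactory bulb neuroblast origin, with PK15, a pig kidney line of non-neuronal, epithelial origin that served as a somatic cell background. Neither line was treated. For each line, RNA from 9 cultures went into 3 pools, and each pool was hybridised to 1 array, so the comparison rests on 3 OBGF400 arrays and 3 PK15 arrays. OBGF400 was grown in DMEM/F12/HAM and PK15 in minimum essential medium with amphotericin B, both with 10% bovine calf serum and the same antibiotics. Each group is a single line, and cell line, medium and culture history cannot be told apart.

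All values are on the log2 scale of the deposited table, which runs between 2.13 and 16.1. The lowest value, 2.13, is shared by 25.8% to 27.3% of the probe sets on each array and is called the floor. A gene was taken to be at the floor in a line when all 3 arrays lay within 0.1 of it. Differences are OBGF400 minus PK15, with a standard error (SE) and a Benjamini-Hochberg adjusted p from limma over all 6765 genes, and a gene was called at an adjusted p under 0.05. Array means were 5.42, 5.42 and 5.41 in OBGF400 and 5.41, 5.42 and 5.41 in PK15. Correlations between arrays were 0.997 to 0.998 within OBGF400, 0.996 within PK15 and 0.860 to 0.865 between the lines.

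Marker genes of the labelled origins were read first. Of 14 listed neuron and neuroblast markers 8 were measured, and 4 of them (NCAM1, MAP2, UCHL1, THY1) were higher in OBGF400, while SNAP25, STMN2, GAP43 and NEFL were at the floor in both lines. All 5 epithelial markers were lower in OBGF400, where KRT18 and KRT19 were at the floor. Of 5 measured mesenchymal markers, 4 (COL1A2, ACTA2, PDGFRB, CDH11) were higher in OBGF400, where ACTA2 averaged 15.1. COL3A1 averaged 2.65 in OBGF400 and 2.58 in PK15 and was not called. The 5 had a summed level of 15.9 to 16.0 on the OBGF400 arrays and 5.03 to 5.59 on the PK15 arrays. Of 4 leukocyte markers, 3 (AIF1, LAPTM5, SPI1) were lower in OBGF400, with a summed level of 4.22 to 4.28 in OBGF400 and 11.8 to 11.9 in PK15, and PTPRC was at the floor in both. Of 3 endothelial markers, 1 was lower in OBGF400. The called genes of these lists moved with the comparison of the lines, and their part in the transporter values below was not tested.

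Transporters set what a cell can take up, keep and export. The carriers of amino acids, sugars, vitamins and metals supply the cytosol, the SLC25 carriers connect the cytosol with the mitochondrial matrix, the SLC35 carriers bring nucleotide sugars into the Golgi and the endoplasmic reticulum, and the ABC pumps use ATP to export lipids, conjugates and drugs. In the kidney tubule many of them sit on one face of the epithelium and reclaim filtered solutes. In the nervous system others clear glutamate and supply neurons with glutamine.

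Of the 133 transporter genes, 28 were higher and 37 were lower in OBGF400 than in PK15, and 68 were not called. Over all 6765 genes, 23.9% were called higher and 36.8% lower, or 60.8% in both directions together, against 21.1% and 27.8%, or 48.9%, of the transporter genes. The median difference was 0.00 over the transporter genes and -0.002 over all genes. Among genes whose 6 values spanned at least 0.1, the median was -0.096 for transporter genes and -0.206 for all genes. Of these, 68.4% of the transporter genes were called, against 74.2% of all genes. The 3 OBGF400 arrays did not overlap the 3 PK15 arrays for 69 transporter genes, or 51.9%, against 66.9% of all genes. A difference of at least 1 on the log2 scale (2-fold) with a call was found for 19 higher and 24 lower transporter genes, where 13.8% and 22.0% of all genes pass. At 3 on the log2 scale (8-fold) there were 7 higher and 5 lower, where 4.61% and 5.71% of all genes pass. In pools of cultured cells, fewer cells of a type and less RNA per cell cannot be told apart.

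Many of the genes stayed at one low value in both lines. At the floor in both lines were 32 transporter genes, or 24.1%, against 15.5% of all genes. A further 6 (SLC39A4, SLC31A2, SLC35C1, SLC4A4, SLC9A5, SLC4A2) lay above the floor with 6 values that spanned less than 0.1. The remaining 95 varied between arrays. No detection call is given with the values, so a gene at the floor is described here only as listed there. Near the floor the size of a difference depends on the scale. For the called transporter and partner genes named below, values with 32 added to each linear value before the log are given where they differ by over 1.5 times.

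The call of a small difference depends on how the arrays are put on one scale. Aligning the arrays on 27 probe sets for hybridization controls (the hybridization spike scale) moved the median of all genes to 0.82, and aligning them on 18 for poly-A controls (the poly-A spike scale) moved it to -0.86. Among the transporter genes the first gave 59 higher and 20 lower, and the second gave 17 higher and 68 lower, leaving aside genes that did not vary. Each alignment adds 1 constant to the difference of every gene, which can call genes near the floor that spanned at least 0.1. Such genes stay in these counts. ABCB11 averaged 2.13 in OBGF400 and 2.19 in PK15, and its difference of -0.06 became 0.76 on the hybridization spike scale. Calls that kept their direction under both spike scales numbered 17 of the 28 higher genes and 20 of the 37 lower genes. Group counts below are followed by their values on these scales.

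**Figure D1:**
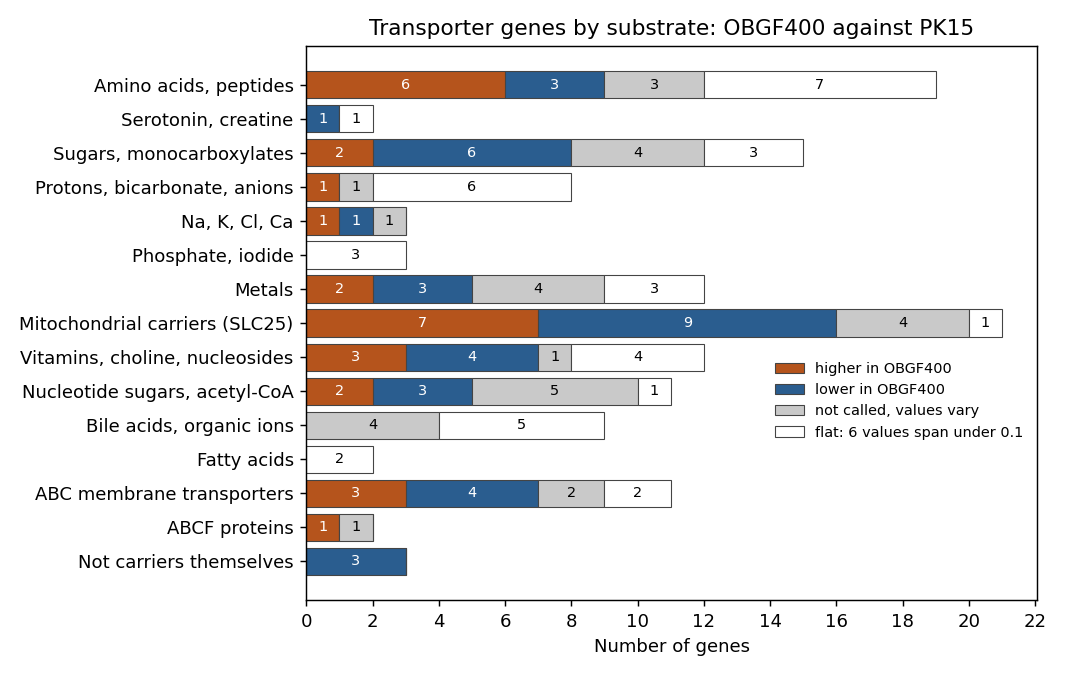
Number of transporter genes in each substrate group that were higher in OBGF400, lower in OBGF400, not called, or flat (6 values that span less than 0.1, the genes at the floor included), by limma at an adjusted p under 0.05. Mitochondrial carriers held 7 higher and 9 lower genes, amino acid and peptide carriers 6 higher and 3 lower, and the carriers of organic ions none in either direction. Over all genes 60.8% were called.

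Among 19 carriers of amino acids and peptides, 6 were higher in OBGF400, 3 were lower and 7 were at the floor in both lines. That is 47.4% called, against 60.8% of all genes. The hybridization spike scale gave 9 higher and 2 lower, and the poly-A spike scale 3 higher and 5 lower. SLC7A4, a relative of the cationic amino acid carriers, measured 9.19, 9.02 and 9.06 in OBGF400 and 2.53, 2.42 and 2.86 in PK15. That is a difference of 6.49 ± 0.13 (SE, limma adjusted p = 7.33e-06), and PK15 lay within 1 of the floor on each array (3.92 with 32 added). SLC1A6, the glutamate carrier EAAT4 best known from Purkinje cells of the cerebellum, measured 8.50, 8.73 and 8.44 in OBGF400, against 2.53, 2.53 and 2.52 in PK15. Its difference was 6.03 ± 0.08 (adjusted p = 2.46e-06), and 3.44 with 32 added. The lines did not overlap for either gene.

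The glutamate carriers did not move together. SLC1A1, the carrier EAAT3 of neurons and of the proximal tubule, measured 7.43, 6.88 and 7.07 in OBGF400 and 11.26, 11.35 and 11.39 in PK15, a difference of -4.21 ± 0.16 (adjusted p = 4.11e-05). On the array it has 5 probe sets, of which 3 were lower in OBGF400 and 2 were near the floor in both lines, which gives a mean over probe sets of -2.35. SLC1A2 and SLC1A3, the glial glutamate carriers, were at the floor in both lines. Of the glutamate carriers measured, then, SLC1A6 was higher and SLC1A1 lower in OBGF400, and the glial pair was listed at the floor.

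SLC38A1, which carries glutamine and is abundant in neurons, measured 10.66, 10.61 and 10.75 in OBGF400 and 8.79, 9.25 and 9.13 in PK15, a difference of 1.62 ± 0.13 (adjusted p = 0.000498), and its other probe sets were higher by 2.83 and 3.51. SLC3A2, the heavy chain shared by several plasma membrane exchangers, measured 8.27, 8.28 and 8.05 against 7.29, 7.46 and 7.54 in PK15. Its difference of 0.77 ± 0.10 (adjusted p = 0.00231) turned to -0.087 under the poly-A spike scale. SLC1A4, a carrier of serine and other neutral amino acids, measured 6.68, 6.65 and 6.82 in OBGF400 and 6.10, 5.45 and 5.82 in PK15 (difference 0.93 ± 0.19, adjusted p = 0.0109), without a call under the poly-A spike scale (0.073). All 3 genes separated the lines without overlap.

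Of the carriers that were lower, SLC7A7 is the light chain of the basolateral exchanger of cationic amino acids in kidney and gut. It was 3.23 on each OBGF400 array, against 5.57, 5.46 and 5.48 in PK15, a difference of -2.27 ± 0.03 (adjusted p = 2.81e-06). The 3 OBGF400 values lay within 0.01 of each other, the second probe set was at the floor in both lines, and the difference was -0.90 with 32 added. SLC38A9, the lysosomal carrier that senses arginine, measured 8.42, 8.54 and 8.57 in OBGF400 and 9.51, 9.52 and 9.73 in PK15 (difference -1.08 ± 0.08, adjusted p = 0.000358). The call of SLC38A9 was lost under the hybridization spike scale (-0.25), and its second probe set was near the floor and not called.

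SLC7A1 and SLC1A5 were not called. SLC7A1, the general arginine and lysine carrier, measured 11.88, 11.95 and 11.97 in OBGF400 and 11.84, 11.82 and 12.04 in PK15 (difference 0.03 ± 0.07, adjusted p = 0.807). SLC1A5, the glutamine carrier ASCT2, measured 9.77, 9.82 and 9.68 in OBGF400 and 9.82, 10.02 and 10.24 in PK15 (difference -0.27 ± 0.12, adjusted p = 0.122). It was called lower without PK15 replicate 1 and under median centring. Both genes were called higher under the hybridization spike scale (0.85 for SLC7A1, 0.56 for SLC1A5). Under the poly-A spike scale both were called lower (-0.82 and -1.12). The arrays of the lines overlapped for SLC7A1, whereas for SLC1A5 they were separated by less than 0.01.

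SLC3A1, the heavy chain of the cystine and basic amino acid transporter of the renal brush border, gave opposite answers on its 2 probe sets. The brighter one measured 9.29, 9.36 and 9.21 in OBGF400 and 8.14, 8.35 and 8.42 in PK15, a difference of 0.98 ± 0.09 (adjusted p = 0.000698). The other was 2.74 on each OBGF400 array and averaged 11.28 in PK15, a difference of -8.54. The mean of both probe sets gave -3.78, so the direction of SLC3A1 is set by which probe set is read, and the brighter one was not called under the poly-A spike scale (0.13). In the RefSeq table for Sscrofa11.1, PREPL overlaps SLC3A1, and which transcript each probe set reads was not tested. Its light chain partner SLC7A9 was at the floor in both lines.

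**Figure D2:**
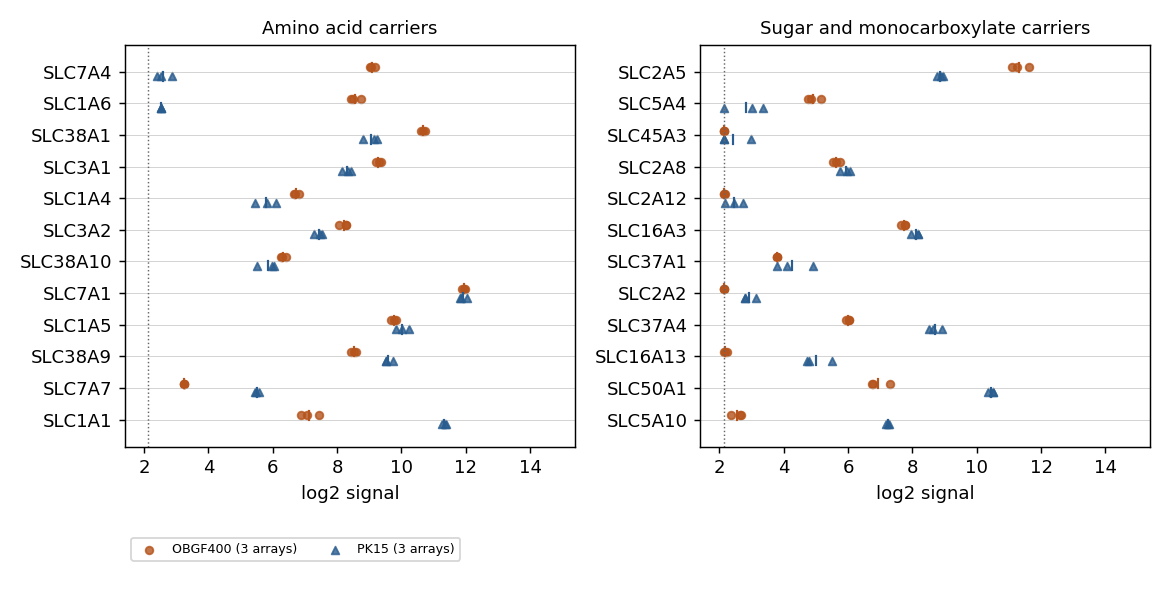
Log2 level of the carriers of amino acids and peptides and of sugars and monocarboxylates on each array, with 3 points for OBGF400 and 3 for PK15 per gene, a tick at each mean, and a dotted line at the floor of 2.13. SLC7A4 and SLC1A6 lie near the floor in PK15 and above 8 in OBGF400, while SLC5A10 and SLC16A13 lie near the floor in OBGF400.

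The neurotransmitter and creatine group held 2 genes. SLC6A8, which takes up creatine in muscle, brain and kidney, measured 9.19, 9.24 and 9.31 in OBGF400 and 11.03, 11.13 and 11.24 in PK15. It was lower by 1.89 on the log2 scale, a 3.70-fold change (SE 0.07, adjusted p = 3.75e-05), and lower under both spike scales. SLC6A4, the serotonin carrier, was at the floor in both lines.

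Of 15 carriers of sugars and monocarboxylates, 2 were higher and 6 were lower in OBGF400, or 53.3% called against 60.8% of all genes. The counts were 6 higher and 4 lower under the hybridization spike scale, and 2 higher and 10 lower under the poly-A spike scale. SLC2A5, the fructose carrier GLUT5, measured 11.11, 11.61 and 11.24 in OBGF400 and 8.94, 8.90 and 8.75 in PK15, a difference of 2.46 ± 0.15 (adjusted p = 0.000193). SLC5A4, of the sodium-glucose family, measured 5.16, 4.75 and 4.86 in OBGF400 and 3.36, 2.14 and 3.01 in PK15 (difference 2.09 ± 0.36, adjusted p = 0.0064). The PK15 values of SLC5A4 reached the floor on 1 array, and the difference was 0.66 after 32 was added to each linear value.

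Among the sugar carriers that were lower is SLC5A10, a sodium-coupled mannose and fructose carrier found mainly in kidney. It measured 2.67, 2.64 and 2.36 in OBGF400 and 7.23, 7.29 and 7.18 in PK15, a difference of -4.68 ± 0.10 (adjusted p = 7.49e-06), and -2.27 with 32 added. SLC50A1, a sugar carrier of the SWEET family, measured 7.30, 6.73 and 6.78 in OBGF400 and 10.49, 10.50 and 10.34 in PK15 (difference -3.51 ± 0.18, adjusted p = 0.000104). SLC37A4, which moves glucose 6-phosphate into the endoplasmic reticulum for the last step of glucose production in liver and kidney, measured 5.95, 6.02 and 6.02 in OBGF400 and 8.52, 8.94 and 8.63 in PK15 (difference -2.70 ± 0.12, adjusted p = 6.83e-05). The second probe set of SLC37A4 was lower by a difference of -6.43. SLC5A10, SLC50A1 and SLC37A4 were lower under both spike scales.

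Monocarboxylate carriers were also lower. SLC16A13 measured 2.16, 2.25 and 2.13 in OBGF400, close to the floor, and 4.73, 5.50 and 4.80 in PK15 (difference -2.83 ± 0.24, adjusted p = 0.000493, and -0.82 with 32 added). SLC16A3, the lactate exporter MCT4 of glycolytic cells, measured 7.64, 7.78 and 7.76 in OBGF400 and 8.17, 7.97 and 8.18 in PK15. Its difference was -0.38 ± 0.08 (adjusted p = 0.0116) and turned to 0.44 under the hybridization spike scale. The glucose carriers SLC2A4 and SLC5A1 were at the floor in both lines, and SLC2A8 (difference -0.29 ± 0.11, adjusted p = 0.0753) and SLC37A1 (-0.47 ± 0.32, adjusted p = 0.279) were not called.

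The ion carriers gave few calls, and many of them were flat. Of 8 exchangers of protons, bicarbonate and anions, 6 were flat, or 75.0% against 18.1% of all genes, and 2 varied. Of the 8, 1 was higher and 0 lower, also at an unadjusted p under 0.05 by limma. That is 12.5% called, against 60.8% of all genes. The counts were 2 higher under the hybridization spike scale, and 1 higher and 1 lower under the poly-A spike scale. SLC26A6, an exchanger of chloride, bicarbonate and oxalate, measured 6.57, 7.70 and 6.91 in OBGF400 and 4.82, 5.04 and 5.04 in PK15 (difference 2.09 ± 0.32, adjusted p = 0.0044). The sodium-proton exchangers SLC9A3 and SLC9A4 and the chloride exchanger SLC26A3 were at the floor in both lines. So were SLC17A1, SLC34A2 and SLC5A5, the 3 genes of the phosphate and iodide group.

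Of the 3 carriers of sodium, potassium, chloride and calcium, SLC12A4, the potassium-chloride cotransporter KCC1 that takes part in volume regulation, measured 9.92, 9.99 and 9.75 in OBGF400 and 6.50, 5.86 and 6.33 in PK15. The difference was 3.66 ± 0.19, a 12.6-fold change (adjusted p = 0.000118). SLC8B1, the sodium-calcium exchanger of mitochondria, measured 5.00, 5.00 and 5.01 in OBGF400 and 5.32, 6.20 and 5.92 in PK15. Its difference of -0.81 ± 0.24 (adjusted p = 0.0414, and -0.47 with 32 added) turned to 0.012 under the hybridization spike scale, and the call was lost without OBGF400 replicate 1, 2 or 3 and without PK15 replicate 2 or 3. SLC8A1, the plasma membrane exchanger of the same family, was near the floor in both lines and was not called (0.08 ± 0.03, adjusted p = 0.0702).

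Among 12 carriers of metals and heme, 2 were higher and 3 were lower in OBGF400, or 41.7% called against 60.8% of all genes. The hybridization spike scale gave 6 higher and 0 lower, and the poly-A spike scale gave 1 higher and 7 lower, and without OBGF400 replicate 3 there were 4 higher. The gene called higher under both spike scales was SLC39A14, which takes up zinc, manganese and iron that is not bound to transferrin. It measured 6.60, 6.90 and 6.25 in OBGF400 and 2.35, 2.18 and 2.18 in PK15, a difference of 4.34 ± 0.18 (adjusted p = 6.12e-05). With 32 added it was 1.80, and the other probe set of SLC39A14 was near the floor in both lines and was not called.

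SLC30A5, which loads zinc into the secretory pathway, measured 10.14, 10.24 and 10.08 in OBGF400 and 9.42, 9.38 and 9.61 in PK15 (difference 0.68 ± 0.08, adjusted p = 0.00157, with a mean over probe sets of 0.34, turning to -0.17 under the poly-A spike scale). SLC39A1, a zinc importer, measured 10.06, 9.99 and 10.00 in OBGF400 and 11.07, 11.23 and 11.04 in PK15 (difference -1.10 ± 0.06, adjusted p = 0.000125), and its second probe set differed by -1.02. The call of SLC39A1 was lost under the hybridization spike scale (-0.28). SLC31A1, the copper importer CTR1, measured 8.92, 9.02 and 8.66 in OBGF400 and 9.57, 9.61 and 9.46 in PK15 (difference -0.68 ± 0.11, adjusted p = 0.00535, with a second probe set at the floor in both lines, turning to 0.14 under the hybridization spike scale). Magnesium carrier SLC41A1 averaged 4.90 in OBGF400 and 5.40 in PK15 (difference -0.50 ± 0.03, adjusted p = 0.000251, and -0.26 with 32 added), which turned to 0.33 under the same scale, and its other probe sets were not called. SLC39A7, the zinc carrier of the endoplasmic reticulum, was not called (0.18 ± 0.06, adjusted p = 0.0642).

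**Figure D3:**
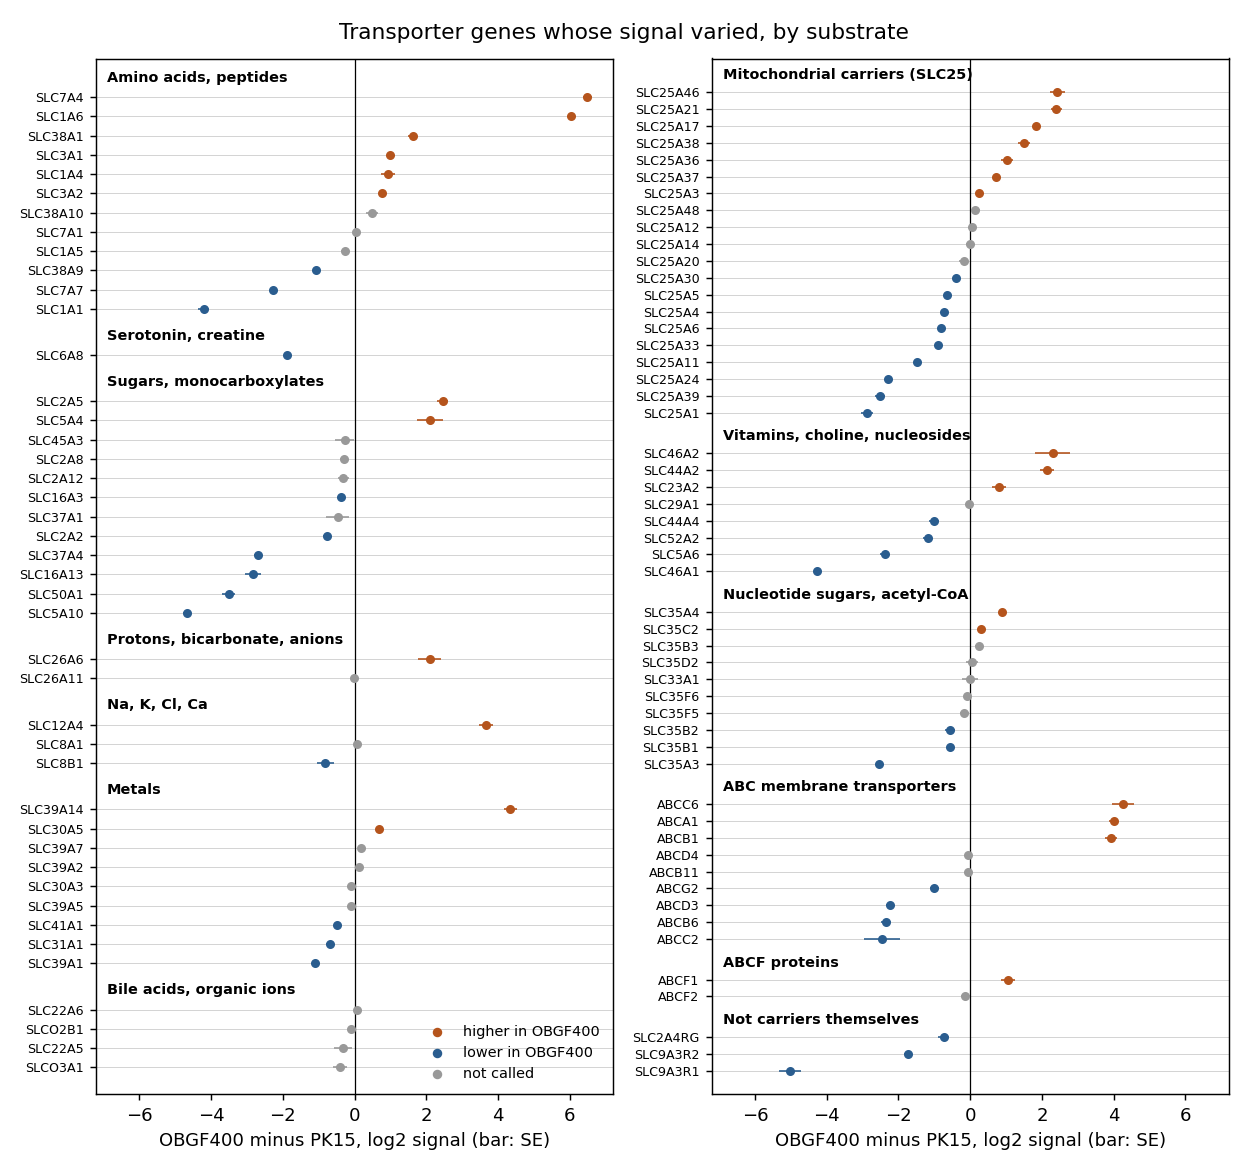
Difference in log2 level, OBGF400 minus PK15, with its SE, for the 95 transporter genes that varied between arrays, ordered by substrate group. Points right of 0 are higher in OBGF400, and the differences span -5.02 for SLC9A3R1 to 6.49 for SLC7A4.

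The SLC25 family of mitochondrial carriers numbered 21 genes, of which 7 were higher, 9 were lower and 1 was at the floor in both lines. That is 76.2% called, against 60.8% of all genes. The counts were 12 higher and 4 lower under the hybridization spike scale, and 4 higher and 14 lower under the poly-A spike scale. Carriers of citrate and of glutathione were among those that were lower. SLC25A1, which exports citrate for fatty acid and sterol synthesis, measured 8.41, 7.98 and 7.88 in OBGF400 and 10.81, 11.01 and 11.10 in PK15 (difference -2.88 ± 0.17, adjusted p = 0.000172). SLC25A39, which brings glutathione into the matrix, measured 6.72, 6.50 and 6.45 in OBGF400 and 8.95, 8.95 and 9.29 in PK15 (difference -2.51 ± 0.13, adjusted p = 0.000118). Neither gene overlapped between the lines.

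SLC25A24, the calcium-regulated exchanger of ATP-magnesium and phosphate, measured 10.61, 10.53 and 10.66 in OBGF400 and 13.06, 12.84 and 12.82 in PK15 (difference -2.30 ± 0.08, adjusted p = 3.57e-05), and its second probe set was not called (-1.21). SLC25A11, the oxoglutarate-malate exchanger of the malate-aspartate shuttle, measured 7.77, 7.50 and 7.52 in OBGF400 and 9.05, 9.16 and 9.04 in PK15 (difference -1.49 ± 0.09, adjusted p = 0.00017). SLC25A12, the aspartate-glutamate exchanger that completes this shuttle, was not called (0.04 ± 0.07, adjusted p = 0.745). The 4 carriers SLC25A1, SLC25A39, SLC25A24 and SLC25A11 were lower under both spike scales.

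The 3 ADP/ATP translocases, abundant proteins of the inner membrane, were each lower by less than 1, differences that turned under the hybridization spike scale (0.095 for SLC25A4, 0.19 for SLC25A5 and 0.0058 for SLC25A6). SLC25A4 measured 10.45, 10.30 and 10.25 in OBGF400 and 11.11, 11.13 and 10.95 in PK15 (difference -0.73 ± 0.08, adjusted p = 0.00112). SLC25A5 measured 12.92, 12.78 and 12.71 in OBGF400 and 13.45, 13.50 and 13.37 in PK15 (-0.63 ± 0.07, adjusted p = 0.00133). SLC25A6 measured 13.44, 13.56 and 13.42 in OBGF400 and 14.23, 14.29 and 14.35 in PK15 (-0.82 ± 0.05, adjusted p = 0.000199). The genes are close paralogs, and whether their probe sets share targets was not tested. SLC25A3, the phosphate carrier of the inner membrane, measured 13.24, 13.26 and 13.21 in OBGF400 and 13.00, 13.02 and 12.93 in PK15. Its difference of 0.26 ± 0.03 (adjusted p = 0.00151) turned to -0.60 under the poly-A spike scale, and its second probe set differed by -0.84 without a call.

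Of the 7 mitochondrial carriers that were higher, 4 held under both spike scales. SLC25A46, a protein of the outer mitochondrial membrane that shapes mitochondrial dynamics, measured 5.46, 5.65 and 4.93 in OBGF400 and 2.97, 2.90 and 2.89 in PK15 (difference 2.43 ± 0.21, adjusted p = 0.000526, and 0.89 with 32 added). SLC25A21, the carrier of oxodicarboxylates from lysine and tryptophan breakdown, measured 11.06, 10.84 and 10.82 in OBGF400 and 8.24, 8.60 and 8.66 in PK15 (difference 2.40 ± 0.15, adjusted p = 0.000178). SLC25A17, which works in peroxisomes, measured 12.83, 12.84 and 12.91 in OBGF400 and 11.00, 11.01 and 11.02 in PK15 (difference 1.85 ± 0.03, adjusted p = 2.46e-06). SLC25A38, which brings glycine in for heme synthesis, measured 6.93, 6.88 and 7.03 in OBGF400 and 5.45, 5.13 and 5.74 in PK15 (difference 1.50 ± 0.17, adjusted p = 0.00144), while its second probe set was flat at 2.29 in both lines.

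**Figure D4:**
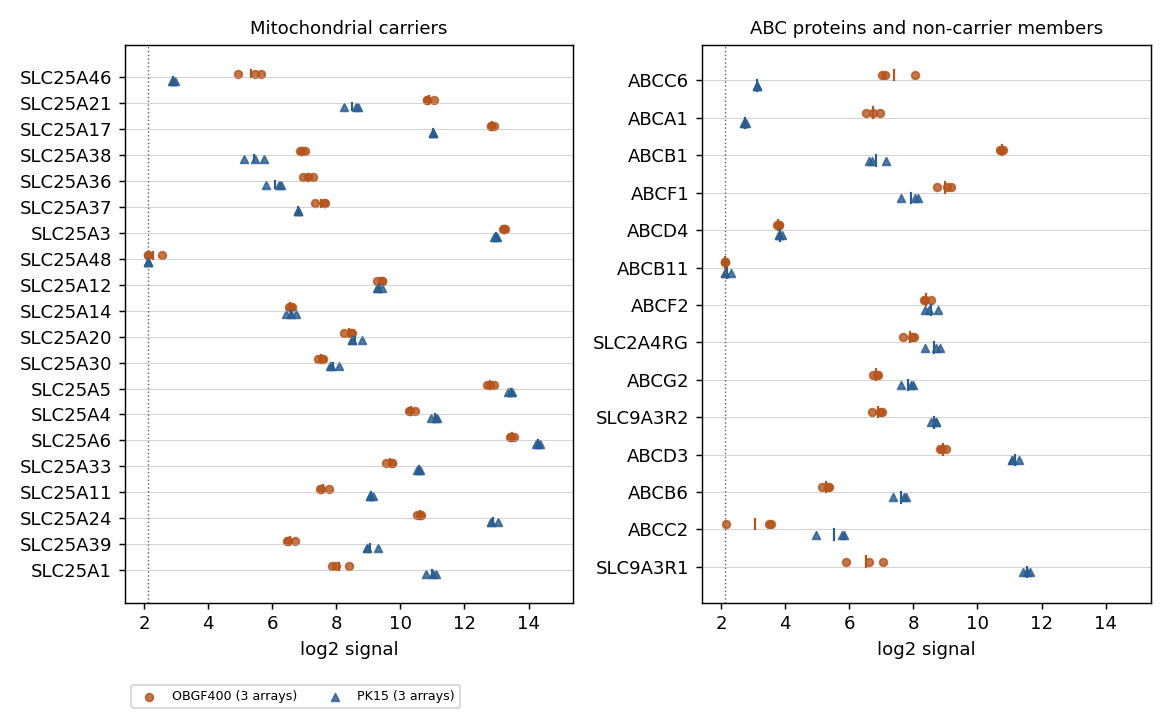
Log2 level of the mitochondrial carriers, the ABC proteins and the proteins named after a carrier on each array, with 3 points for OBGF400 and 3 for PK15 per gene, a tick at each mean, and a dotted line at the floor of 2.13. The translocases SLC25A4, SLC25A5 and SLC25A6 separate by less than 1, whereas ABCB1, ABCA1, ABCC6 and SLC9A3R1 separate by more than 3.

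Vitamin, choline and nucleoside carriers numbered 12, of which 3 were higher and 4 were lower in OBGF400, or 58.3% called against 60.8% of all genes. The counts were 4 higher and 3 lower under the hybridization spike scale and 2 higher and 5 lower under the poly-A spike scale. The vitamin carriers that take up folate, biotin and riboflavin were lower. SLC46A1, the proton-coupled folate carrier, measured 2.63, 2.37 and 2.34 in OBGF400 and 6.62, 6.79 and 6.73 in PK15 (difference -4.27 ± 0.10, adjusted p = 9.5e-06, and -1.87 with 32 added). Its second probe set differed by -0.57 and was not called. SLC5A6, which takes up biotin and pantothenate, measured 8.76, 8.77 and 8.57 in OBGF400 and 10.94, 11.03 and 11.30 in PK15 (difference -2.39 ± 0.12, adjusted p = 9.61e-05). SLC52A2, a riboflavin carrier, measured 6.58, 6.57 and 6.38 in OBGF400 and 7.75, 7.49 and 7.86 in PK15 (difference -1.19 ± 0.12, adjusted p = 0.000914).

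The choline-like carriers of the SLC44 family split. SLC44A2 measured 8.58, 8.43 and 8.37 in OBGF400 and 6.15, 6.74 and 6.07 in PK15 (difference 2.14 ± 0.21, adjusted p = 0.000824), and its other probe sets differed by 5.39 and 4.79 in the same direction. SLC44A4 was 3.27 on each OBGF400 array and 4.43, 4.43 and 3.99 in PK15 (difference -1.02 ± 0.14, adjusted p = 0.00277), with -0.31 with 32 added and no call under the hybridization spike scale (-0.19). SLC46A2, a relative of the folate carrier known from the thymus in mice, measured 6.22, 6.91 and 6.89 in OBGF400 and 4.01, 5.29 and 3.82 in PK15 (difference 2.30 ± 0.49, adjusted p = 0.0129, and 1.32 with 32 added), and its call was lost without OBGF400 replicate 3. SLC23A2, the vitamin C carrier SVCT2 of neurons and many other cells, measured 3.56, 4.11 and 3.48 in OBGF400 and 2.99, 2.96 and 2.77 in PK15. Its difference of 0.81 ± 0.20 (adjusted p = 0.0213, and 0.20 with 32 added) lost its call when PK15 replicate 1, 2 or 3 was left out and turned to -0.046 under the poly-A spike scale. The nucleoside carrier SLC29A1 was near the floor in both lines and was not called (-0.04 ± 0.03, adjusted p = 0.42).

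Of 11 carriers of nucleotide sugars and acetyl-CoA in the Golgi and the endoplasmic reticulum, 2 were higher and 3 were lower in OBGF400. That is 45.5% called, against 60.8% of all genes. The counts turned to 7 higher and 1 lower under the hybridization spike scale and to 0 higher and 9 lower under the poly-A spike scale. The gene lower under both was SLC35A3, the UDP-N-acetylglucosamine carrier of the Golgi. It measured 8.09, 7.99 and 7.99 in OBGF400 and 10.72, 10.39 and 10.58 in PK15, a difference of -2.54 ± 0.10, or 5.81-fold (adjusted p = 4.27e-05). The others moved by less than 1. SLC35B1, which brings ATP into the endoplasmic reticulum, differed by -0.55 ± 0.07 (adjusted p = 0.00228), and SLC35B2, which brings the sulfate donor PAPS into the Golgi, by -0.55 ± 0.14 (adjusted p = 0.0234). Both turned to 0.27 under the hybridization spike scale, and SLC35B2 was no longer called when OBGF400 replicate 1 or 3, or PK15 replicate 2 or 3, was left out. SLC35A4 was higher, at 8.71, 8.65 and 8.67 in OBGF400 and 7.59, 7.86 and 7.90 in PK15 (0.90 ± 0.09, adjusted p = 0.00108), with a second probe set higher by 2.28, and was not called under the poly-A spike scale (0.042). SLC35C2 differed by 0.31 ± 0.05 (adjusted p = 0.00484), which turned to -0.55 under the poly-A spike scale. The acetyl-CoA carrier SLC33A1 was not called (-0.01 ± 0.21, adjusted p = 1).

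The 9 carriers of bile acids, drugs and other organic ions, the uptake systems of liver and proximal tubule, held no called gene, and 5 of them (SLC10A1, SLC22A2, SLC22A3, SLC22A8, SLCO1A2) were at the floor in both lines. By limma 0 of the 9 passed at an unadjusted p under 0.05, and the arrays of the lines overlapped for each of them. Of all genes 60.8% were called, 66.9% did not overlap and 18.1% were flat. In this group 55.6% were flat. Under the hybridization spike scale 4 were called higher, and under the poly-A spike scale 4 were called lower. These were the 4 genes of the group that varied, and the direction of their calls followed the constant added by each scale. SLC22A6, for example, averaged 2.31 in OBGF400 and 2.25 in PK15. Leaving out PK15 replicate 2 gave 1 lower gene, SLCO3A1. SLCO3A1 measured 2.14 on each OBGF400 array and 2.71, 2.14 and 2.82 in PK15 (-0.41 ± 0.20, adjusted p = 0.145). The fatty acid carriers SLC27A1 and SLC27A6 were at the floor in both lines.

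Among the 11 membrane ABC transporters, 3 were higher and 4 were lower in OBGF400, or 63.6% called against 60.8% of all genes. The split was 5 and 3 under the hybridization spike scale and 3 and 6 under the poly-A spike scale. ABCB1, the drug pump P-glycoprotein of the blood-brain barrier, gut and kidney, measured 10.81, 10.74 and 10.71 in OBGF400 and 6.63, 7.16 and 6.72 in PK15 (difference 3.92 ± 0.16, 15.2-fold, adjusted p = 5.35e-05). A second probe set of ABCB1 differed by 6.92, and the third was at the floor in both lines. In the RefSeq table ABCB1 overlaps LOC100522818, which differed by 3.52 on the array, and whether the probe sets separate the 2 genes was not tested. ABCA1, which exports cholesterol to apolipoproteins, measured 6.53, 6.73 and 6.97 in OBGF400 and 2.72, 2.72 and 2.77 in PK15 (difference 4.0 ± 0.12, adjusted p = 2.36e-05, and 1.85 with 32 added). ABCC6, known for the release of ATP from liver and for the mineralization disorder pseudoxanthoma elasticum in humans, measured 7.02, 8.05 and 7.10 in OBGF400 and 3.13 on each PK15 array. Its difference was 4.26 ± 0.31 (adjusted p = 0.000325, and 2.30 with 32 added), and its second probe set differed by 3.20 with PK15 at the floor.

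The other called pumps went the opposite way. ABCC2, which exports conjugates across the apical membrane of hepatocytes and proximal tubule cells, measured 3.55, 2.15 and 3.51 in OBGF400 and 4.97, 5.83 and 5.77 in PK15 (difference -2.45 ± 0.51, adjusted p = 0.0119, and -0.94 with 32 added). ABCB6, a porphyrin transporter, measured 5.37, 5.33 and 5.14 in OBGF400 and 7.36, 7.72 and 7.78 in PK15 (difference -2.34 ± 0.14, adjusted p = 0.000171). ABCD3, which brings branched-chain acyl-CoA into peroxisomes, measured 9.02, 8.82 and 8.91 in OBGF400 and 11.31, 11.09 and 11.08 in PK15 (difference -2.25 ± 0.09, adjusted p = 5.06e-05). ABCG2, a drug pump of many epithelia, measured 6.90, 6.88 and 6.75 in OBGF400 and 7.60, 7.93 and 8.00 in PK15 (difference -1.0 ± 0.12, adjusted p = 0.00191), but its second probe set was at the floor in both lines. ABCB1, then, was higher and ABCG2, like ABCC2, lower in OBGF400, although ABCG2 differed by only -0.18, without a call, under the hybridization spike scale.

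The ABCF proteins have no membrane domain and act in translation. ABCF1 measured 8.75, 9.18 and 9.05 in OBGF400 and 7.63, 8.13 and 8.04 in PK15 (difference 1.06 ± 0.19, adjusted p = 0.00732), and 0.21, without a call, under the poly-A spike scale, while ABCF2 was not called (-0.14 ± 0.13, adjusted p = 0.457).

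The symbol rule also takes in 3 proteins named after a carrier that carry nothing. SLC9A3R1 and SLC9A3R2 are the scaffolds NHERF1 and NHERF2, which hold carriers at the apical membrane of epithelia, and SLC2A4RG is a transcription factor. SLC9A3R1 measured 7.05, 6.60 and 5.91 in OBGF400 and 11.43, 11.56 and 11.64 in PK15, a difference of -5.02 ± 0.32, or 32.5-fold (adjusted p = 0.000205). SLC9A3R2 measured 7.04, 6.71 and 6.96 in OBGF400 and 8.55, 8.69 and 8.71 in PK15 (difference -1.75 ± 0.11, adjusted p = 0.000175). SLC2A4RG differed by -0.74 ± 0.16 (adjusted p = 0.0136) with its call lost without PK15 replicate 2, and turned to 0.081 under the hybridization spike scale. The 2 scaffolds were lower under both scalings.

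Probe sets of 1 gene did not always give the same answer. Of the 47 transporter genes with more than 1 probe set, 29 had the same call on each, 17 were called on some and not on others, and SLC3A1 was called in opposite directions. SLC35F5 was not called on its brightest probe set (-0.17 ± 0.12, adjusted p = 0.327), yet its other probe sets were higher by 0.71 and 1.49. SLC33A1 was called lower on 1 of its 4 probe sets, by -0.50.

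**Figure D5:**
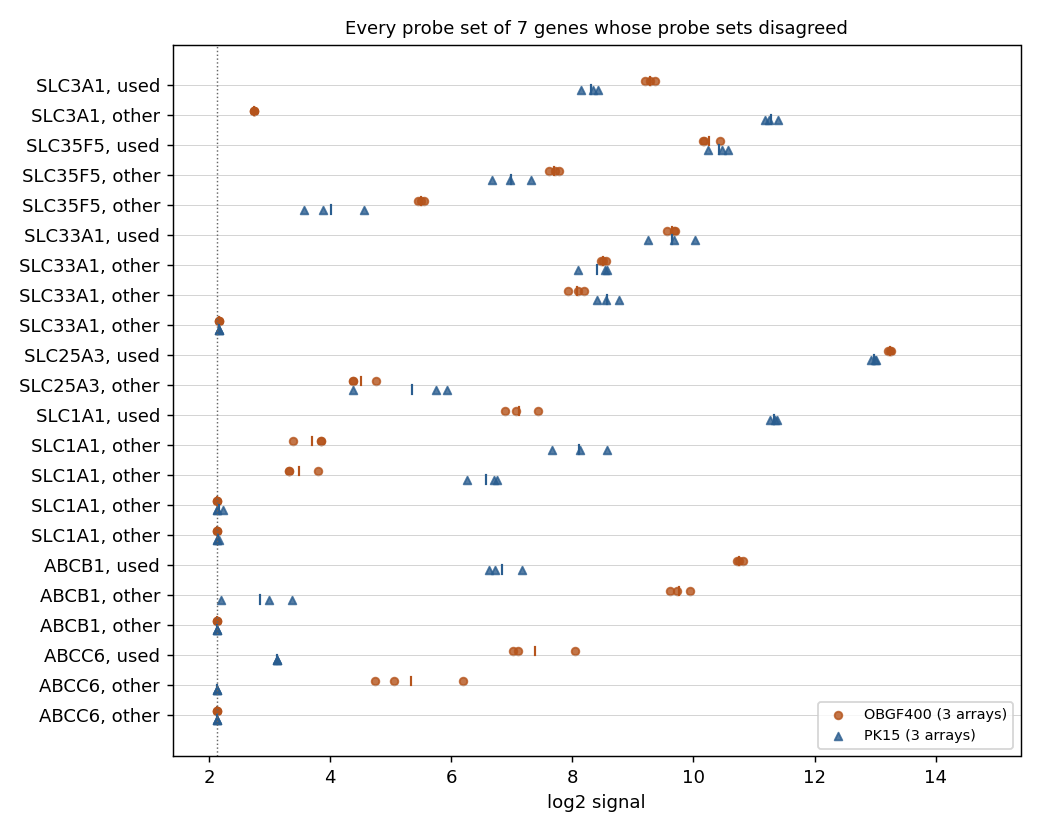
Log2 level on each array of every probe set of SLC3A1, SLC35F5, SLC33A1, SLC25A3, SLC1A1, ABCB1 and ABCC6, with OBGF400 above PK15 and the floor dotted. The 2 probe sets of SLC3A1 run in opposite directions (0.98 and -8.54), and 1 probe set each of ABCB1 and ABCC6 stays at the floor in both lines.

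Genes that work with these transporters were read from lists drawn up by function. Over all 6765 genes 23.9% were higher and 36.8% lower, or 60.8% called. Called in the lists were 88.9% of the pump, 83.3% of the accessory and scaffold, 41.7% of the regulator and 45.5% of the channel genes measured. Of the aquaporin genes 0% were called. The lists are short, and 1 gene moves these shares by several percent or more. Of 9 measured sodium-potassium and calcium pump genes, 3 were higher and 5 lower, with 5 and 1 under the hybridization spike scale and 2 and 5 under the poly-A spike scale. FXYD6, a pump modulator of the brain, was higher by 6.33 ± 0.32 (adjusted p = 9.9e-05, and 4.17 with 32 added) and ATP2B1, a calcium pump of the plasma membrane, by 1.78 ± 0.23 (adjusted p = 0.0021). FXYD2, the modulator of the kidney pump, was lower (-1.96 ± 0.34, adjusted p = 0.00679), as was FXYD5 (-0.87 ± 0.09, adjusted p = 0.000928), which lost its call under the hybridization spike scale (-0.049).

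Of 6 measured accessory and scaffold genes, 2 were higher and 3 lower, with 3 and 3 under the hybridization spike scale and 0 and 3 under the poly-A spike scale. PDZK1, a scaffold that binds apical carriers of the proximal tubule, averaged 2.38 in OBGF400 and 9.38 in PK15 (difference -7.00 ± 0.14, adjusted p = 6.36e-06, and -4.23 with 32 added). TMEM27, which brings amino acid carriers to the brush border, averaged 5.16 in OBGF400 and 10.4 in PK15 (difference -5.24 ± 0.18). BSG, a chaperone of monocarboxylate carriers, was higher by 0.58 ± 0.11, and its relative NPTN by 0.82 ± 0.10, but under the poly-A spike scale BSG turned to -0.28 and NPTN to -0.039, both without a call.

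Among 12 measured regulators of ion transporters and amino acid sensing, 2 were higher and 3 lower, with 7 and 1 under the hybridization spike scale and 1 and 8 under the poly-A spike scale. SESN1, a leucine-sensing protein of the sestrin family, was higher by 2.85 ± 0.22, and ATF4, the transcription factor that induces amino acid carriers on starvation, by 0.36 ± 0.07 (adjusted p = 0.00833), which turned to -0.50 under the poly-A spike scale. LAMTOR2, a subunit of the lysosomal Ragulator complex, was lower (-2.44 ± 0.07), as was SGK1, a kinase that acts on ion carriers (-0.97 ± 0.27, adjusted p = 0.0345), which lost its call under the hybridization spike scale (-0.14). Of 11 measured chloride and potassium channel genes, 0 were higher by limma, also at an unadjusted p under 0.05. In this list 5 were lower and 4 were at the floor in both lines. The largest falls were those of CLCN5, the endosomal chloride-proton exchanger of the proximal tubule (-5.15 ± 0.15, and -3.17 with 32 added), and KCNN4, a calcium-activated potassium channel (-4.0 ± 0.13, and -1.88 with 32 added). These channel counts were 2 higher and 3 lower under the hybridization spike scale and 0 higher and 7 lower under the poly-A spike scale. Of 5 measured aquaporins 4 were flat, or 80.0% against 18.1% of all genes. By limma 0 of the 5 were called, and 1, AQP11, was lower at an unadjusted p under 0.05 (-0.41, adjusted p = 0.0674). AQP11 was called higher under the hybridization spike scale (0.42) and lower under the poly-A spike scale (-1.26). Of 2 measured ABC transporters under other symbols, TAP1, which pumps peptides for antigen presentation, was lower (-1.15 ± 0.14, adjusted p = 0.00167, without a call at -0.33 under the hybridization spike scale) and CFTR was at the floor in both lines.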

How the data were processed

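Biotin-labelled cRNA, made by a 3' amplification kit per the labels' protocols, was hybridised to Affymetrix porcine arrays. The table holds log2 expression values deposited by the authors. Of tools, the submitters' notes on processing list only affy, without a version. How background, probe summaries and normalization were handled is not given in the sources used here. That the scale is log2 was read from the values, which were used as deposited.

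Of 24123 probe sets, 124 controls were left out. Probe sets were named from the platform annotation: 10069 have 1 symbol, 198 several and 13732 none. Of the 133 transporter genes, 132 were found by Entrez ID in the RefSeq table and none was renamed. A single probe set per gene, the one with the highest mean, gave 6765 genes, fitted with limma 3.58.1 in R 4.3.3 (lmFit and eBayes, all 6 arrays, no covariate) with Benjamini-Hochberg adjustment. With 3 against 3 arrays the smallest exact two-sided permutation p is 0.1, so single values were tested by the fit over all genes. The number of arrays limits the precision, and the 3 pools per line give the spread between pools of 1 line.

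Genes named in the text are, per substrate group, up to 4 called rises and falls with the largest change whose arrays do not overlap, the 2 uncalled genes with the highest mean, and a fixed set. For partner lists they are up to 2 rises and 2 falls, and genes at the floor are named as such. Other names were chosen after their values were seen. The members and lists were chosen with earlier results of these data known. Alternatives were quantile normalization, median centring, alignment on hybridization or poly-A control probe sets (the spike scales), a filter at the 25th percentile, a trended and robust variance, 32 added to the linear value, the mean of probe sets, all probe sets in one fit, an adjusted p under 0.01, a replicate block and leaving out each array. Same-numbered pools did not deviate together, with correlations of 0.03, -0.01 and 0.01, and were not treated as pairs. Sequences of the genes are not used here, and their positions in the RefSeq table were used only to find overlapping genes.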

Additional observations from a re-analysis of the deposited data

How the results depend on the processing

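Of the 65 called transporter genes, 65 kept call and sign under quantile normalization, 64 with 32 added to the linear value, 56 at an adjusted p under 0.01, 48 under the hybridization spike scale and 54 under the poly-A spike scale. The replicate block gave 29 higher and 33 lower transporter genes and kept 61 calls, without ABCC2, SLC16A3, SLC25A30 and SLC8B1 (adjusted p = 0.0619, 0.0625, 0.0963 and 0.0849, limma). The labels give no shared batch for the pool numbers, and not every pool correlated best with its own number. Leaving out 1 array at a time gave 27 to 29 higher and 34 to 39 lower genes.

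The hybridization spike scale gave 59 higher and 20 lower transporter genes, and the poly-A spike scale 17 higher and 68 lower. By group, the hybridization spike scale gave 5 higher ABC membrane transporters, 4 higher organic ion carriers, 6 higher and 0 lower metal carriers, 12 higher and 4 lower mitochondrial carriers, 7 higher and 1 lower nucleotide sugar carriers, 2 higher proton and anion carriers and 6 higher sugar carriers. The poly-A spike scale gave 3 higher and 5 lower amino acid carriers, 4 lower organic ion carriers, 1 higher and 7 lower metal carriers, 4 higher and 14 lower mitochondrial carriers, 0 higher and 9 lower nucleotide sugar carriers, 1 lower proton and anion carrier and 10 lower sugar carriers. Quantile normalization gave 1 higher organic ion carrier and 1 lower anion carrier (SLC9A5, a flat gene, which the counts on the spike scales leave out), the replicate block 1 higher organic ion carrier, the mean of probe sets 1 lower anion carrier (SLC9A5 again), and an adjusted p under 0.01 left 1 higher vitamin carrier. Without 1 array the organic ion carriers had 0 to 1 lower (1 without PK15 replicate 2) and the metal carriers 2 to 4 higher (4 without OBGF400 replicate 3). Without flat genes, the share of transporter calls that were higher was 43.1% as reported, 74.7% under hybridization and 20.0% under the poly-A spike scale. Over all genes, flat genes included, it was 39.4%, 78.1% and 12.8%, so the shares on the spike scales are not on a like basis. With flat genes included, the hybridization spike scale gave 97 higher and 20 lower transporter genes. The poly-A spike scale then gave 17 higher and 106 lower.

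Among the genes named by the rule and called on either scale, the sign turned under the hybridization spike scale for ABCB11 (0.76), ABCD4 (0.77), ABCF2 (0.69), SLC16A3 (0.44), SLC1A5 (0.56), SLC22A5 (0.50), SLC25A20 (0.64), SLC25A4 (0.095), SLC25A5 (0.19), SLC25A6 (0.0058), SLC26A11 (0.81), SLC29A1 (0.79), SLC2A4RG (0.081), SLC2A8 (0.53), SLC31A1 (0.14), SLC33A1 (0.81), SLC35B1 (0.27), SLC35B2 (0.27), SLC35F5 (0.65), SLC39A5 (0.73), SLC41A1 (0.33), SLC8B1 (0.012) and SLCO3A1 (0.41). Under the poly-A spike scale it turned for SLC23A2 (-0.046), SLC25A12 (-0.82), SLC25A3 (-0.60), SLC30A5 (-0.17), SLC35C2 (-0.55), SLC39A7 (-0.68), SLC3A2 (-0.087), SLC7A1 (-0.82) and SLC8A1 (-0.78). Beyond these, SLC25A30 (0.44), SLC2A2 (0.040) and uncalled SLC37A1 (0.35) turned under the hybridization spike scale and SLC25A37 (-0.14) under the poly-A spike scale. With the mean of probe sets it turned for SLC25A3 (-0.29), SLC35F5 (0.68) and SLC3A1 (-3.78). Each control scaling adds 1 constant to the difference of every gene, and which scale fits these cells was not tested. ABCB11 and SLC29A1, near the floor in both lines, were called through that constant. Each scaling also shifts every gene by the same amount on an array, which the fit reads as spread of each gene separately. Its adjusted p are therefore not comparable with those reported: PDZK1 had 6.36e-06 by limma as reported and 5.77e-286 under the poly-A spike scale. Leaving out the genes that vary by less than 0.1, an alternative chosen after seeing the data, gave 29 higher and 38 lower. The detection of a probe set above background is not recorded in the table, so values near 2.13 have no order.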
